A study of Mus musculus with 25 samples.

Results

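FL G1-ILCs and BM iILC1s are 2 of the candidate sources of liver ILC1s that the study considers, and their transcriptomes were compared gene by gene in 7 of the 25 libraries of the series. FL G1-ILCs (4 libraries) were group 1 innate lymphoid cells of the liver of wild-type C57BL/6 embryos at E18.5, sorted as CD3- NK1.1+ NKp46+ cells with intermediate CD49a and intermediate CD49b per the labels, where the study calls them positive for CD49a. BM iILC1s (3 libraries) were immature ILC1s of the bone marrow of wild-type C57BL/6 mice of 8 weeks, sorted as CD3- NK1.1+ NKp46+ cells with CD49a and low CD49b. IL-7R, the receptor for interleukin-7, was in neither gate. The 2 groups therefore differed in organ, in age and in the CD49a and CD49b gates, and these cannot be told apart in this comparison. Beside them stand AL 7R- ILC1s (4 libraries) and AL 7R+ ILC1s (3 libraries), the CD49a+ CD49b low ILC1s of adult liver split by IL-7R, and the CD49a- CD49b+ NK cells of adult liver (AL NK cells, 2 libraries) and of bone marrow (BM NK cells, 3 libraries), all from wild-type C57BL/6 mice of 8 weeks.

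Group 1 innate lymphoid cells are lymphocytes without a rearranged antigen receptor that depend on the transcription factor T-bet and make interferon-gamma. ILC1s mostly stay in their tissue, while NK cells circulate and kill target cells by releasing perforin and granzymes. During development the fetal liver is the main blood-forming organ, a role that the bone marrow takes over around birth, so that liver ILC1s can in principle come from cells that were there before birth or from marrow cells that arrive later.

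Read counts per library ran from 2302643 to 5453714 in FL G1-ILCs and from 4483059 to 4646902 in BM iILC1s. Counting noise accounted for nearly all of the difference between FL libraries 2 and 3 (chi-square over its degrees of freedom 1.18), where the 8 other pairs within the 2 groups reached 3.51 to 8.14. Their counts were summed and counted once, which left 3 samples against 3. The study calls the libraries biological replicates, but the labels do not say whether each is a different animal, and p-values cover only the spread between these samples. Levels are given as normalized CPM, a gene's reads relative to the reads of its library after scaling by the trimmed mean of M-values, in the order of samples 1, 2 plus 3, and 4 for FL G1-ILCs and 1, 2 and 3 for BM iILC1s. A gene is called when its adjusted p is under 0.05 in the quasi-likelihood test of edgeR, adjusted by Benjamini-Hochberg over the 13424 genes that passed the filter on low counts.

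Transcripts of other cell types were looked for first. The 15 myeloid markers summed to 46.2 to 131 CPM in FL G1-ILCs, against 266 to 513 CPM in BM iILC1s, with none at 0 in a whole group. The 14 neutrophil and granule markers ranged from 1.38 to 413 CPM in FL G1-ILCs and from 9.13 to 1670 CPM in BM iILC1s, and BM iILC1 sample 2 stood apart in them, with 783 CPM of Mpo where the other BM iILC1 samples had 0.21 and 0.849 CPM. FL G1-ILC sample 4 held the 413 CPM of its group, where samples 1 and 2 plus 3 had 77.9 and 1.38 CPM. Hepatocyte markers summed to 16.7 to 21.6 CPM in FL G1-ILCs and to 14.6 to 19.1 CPM in BM iILC1s. Erythroid markers summed to 637 to 830 CPM in FL G1-ILCs and to 385 to 571 CPM in BM iILC1s, most of it Car2, at 543 to 571 CPM in FL G1-ILCs and 345 to 408 CPM in BM iILC1s. In that list the adult globin gene Hba-a1 overlapped (16.3, 103 and 70.6 CPM in FL G1-ILCs, 29.4, 4.19 and 97.3 CPM in BM iILC1s), Slc4a1 was called higher with overlapping values (0, 24.7 and 9.20 CPM in FL G1-ILCs, 2.73, 0 and 0.425 CPM in BM iILC1s), and the embryonic globin genes Hbb-y, Hba-x and Hbb-bh1 were at 0 in every FL G1-ILC sample. The part of these cell types in the results was not tested. Without BM iILC1 sample 2, an alternative fixed with the tests, 5302 genes were called, of which 5116 were among the 5914 called with it. Without FL G1-ILC sample 4, 5241 genes were called, 5084 of them among the same 5914.

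The markers of the gate were present in both groups. Ncr1, which encodes NKp46, had 654, 648 and 619 CPM in FL G1-ILCs, against 2113, 1910 and 1699 CPM in BM iILC1s (log2 fold change -1.57 ± 0.08 SE, edgeR adjusted p = 2.17e-12). Klrb1c, which encodes NK1.1, had 988, 1069 and 1061 CPM in FL G1-ILCs and 2160, 1976 and 1968 CPM in BM iILC1s, a log2 fold change of -0.97 ± 0.07 (adjusted p = 1.05e-09). Itga1, the CD49a gene, had 288, 213 and 265 CPM in FL G1-ILCs and 229, 180 and 110 CPM in BM iILC1s, and its groups overlapped (adjusted p = 0.0664); it was called without BM iILC1 sample 1 (adjusted p = 0.017), without a filter on low counts (adjusted p = 9.34e-07) and at equal depth (adjusted p = 0.0449). Itga2, the CD49b gene, was lower in FL G1-ILCs, at 22.7, 23.9 and 22.8 CPM, than in BM iILC1s, at 45.6, 45.2 and 42.0 CPM (adjusted p = 0.000358), the opposite order to the surface gates. Of the ILC1 genes, Cxcr6 averaged 278 CPM in FL G1-ILCs, 548 CPM in BM iILC1s and 2.35 CPM in AL NK cells. Eomes, the transcription factor that sets NK cells apart from ILC1s, had 26.1, 32.9 and 36.6 CPM in FL G1-ILCs and 31.3, 31.4 and 48.8 CPM in BM iILC1s, which overlapped (adjusted p = 0.557), where AL NK cells averaged 499 CPM.

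FL G1-ILCs and BM iILC1s differed in a large part of what they expressed. Of 13424 genes tested, 5914 were called (44.1%), 3086 of them higher in FL G1-ILCs (23.0%) and 2828 lower (21.1%), with a median log2 fold change of -0.04 over all genes tested. Among the called genes, 152 were over 16-fold higher and 209 over 16-fold lower in FL G1-ILCs. The 3 samples of each group did not overlap in 7437 genes (55.4%), with every FL G1-ILC sample above every BM iILC1 sample in 3896 (29.0%) and below in 3541 (26.4%), and 5679 genes were both called and without overlap. These shares are the background against which the gene lists that follow are read.

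**Figure D1:**
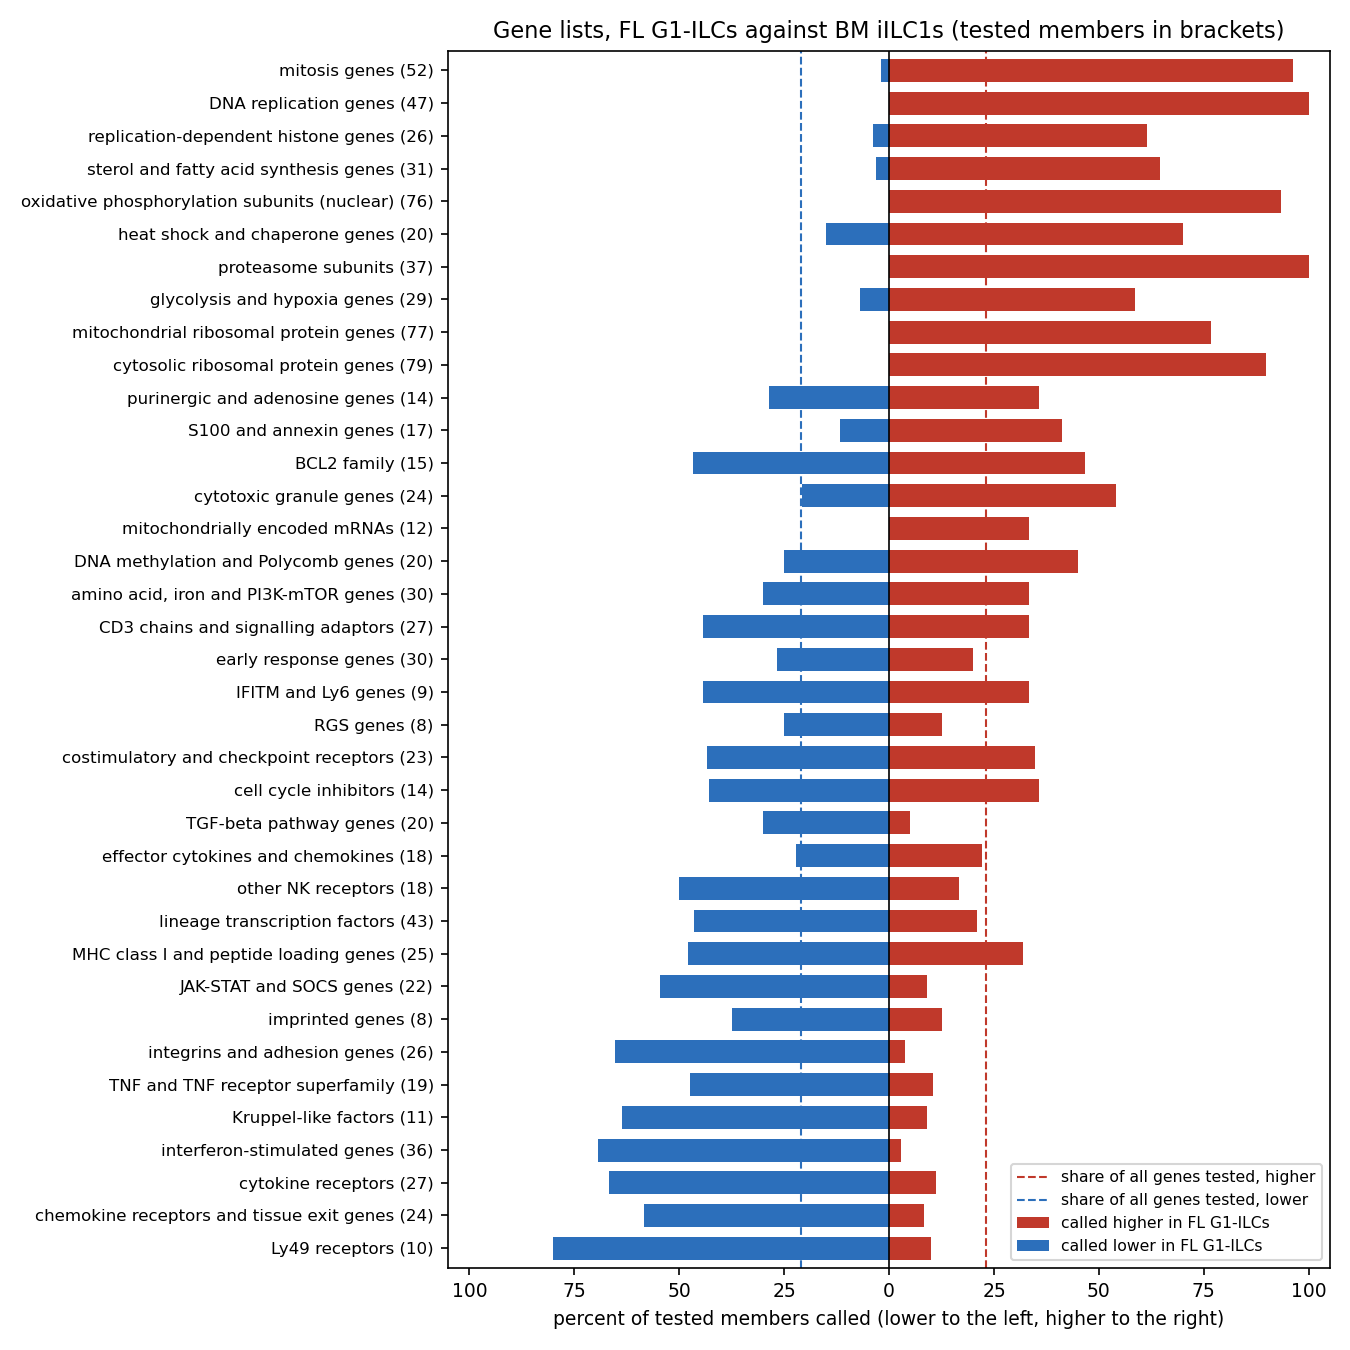
Percent of the tested members of each gene list called higher (red, to the right of 0) or lower (blue, to the left) in FL G1-ILCs than in BM iILC1s at an edgeR adjusted p under 0.05, with the number of tested members in brackets and lists ordered by their median log2 fold change. The dashed lines mark the shares over all 13424 genes tested, 23.0% higher and 21.1% lower; the lists of mitosis and DNA replication genes stand at the top and the Ly49 receptors at the bottom.

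The interleukin-7 receptor gene had the largest fitted difference among called genes with reads in both groups. Il7r (ENSMUSG00000003882, mm10 chr15:9505788-9530176) had 0.399, 0.46 and 1.84 CPM in FL G1-ILCs, against 1271, 1111 and 1190 CPM in BM iILC1s. The groups lay far apart, with a log2 fold change of -10.46 ± 0.31 (edgeR adjusted p = 5.97e-16). In such bulk samples, fewer cells that express a gene and less RNA per cell cannot be told apart. Kit, the receptor for stem cell factor found on ILC precursors, had 2.79, 1.23 and 4.83 CPM in FL G1-ILCs and 85.2, 96.1 and 44.4 CPM in BM iILC1s (log2 fold change -4.74 ± 0.66, adjusted p = 4.8e-06). Il2ra, the high-affinity chain of the interleukin-2 receptor, had 4.18, 6.13 and 6.9 CPM in FL G1-ILCs and 37.6, 36.8 and 41.0 CPM in BM iILC1s (log2 fold change -2.74 ± 0.33, adjusted p = 6.35e-07).

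Of the 27 cytokine receptor genes tested, 18 were lower and 3 higher in FL G1-ILCs, with a median log2 fold change of -0.94. The receptor for interleukin-18, a cytokine that drives interferon-gamma release, was lower in both chains, Il18r1 at 67.4, 79.8 and 89.0 CPM in FL G1-ILCs against 283, 243 and 275 CPM in BM iILC1s, and Il18rap at 302, 320 and 276 CPM against 611, 572 and 635 CPM. Neither chain overlapped between the groups. The shared chains of the interleukin-2 and interleukin-15 receptors moved less, with log2 fold changes of -0.31 ± 0.07 for Il2rb and -0.48 ± 0.07 for Il2rg. Ifngr1, the ligand-binding chain of the interferon-gamma receptor, averaged 787 CPM in FL G1-ILCs and 2036 CPM in BM iILC1s (log2 fold change -1.37, adjusted p = 3.41e-10). The 3 receptor genes that were higher were Il12rb1 (0.57) and Il12rb2 (0.66), the chains of the interleukin-12 receptor, and Il21r (1.10). Il12rb2 had 345, 331 and 329 CPM in FL G1-ILCs and 245, 188 and 202 CPM in BM iILC1s.

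Downstream of these receptors, 12 of 22 JAK-STAT and SOCS genes were lower and 2 higher in FL G1-ILCs, with a median log2 fold change of -0.39. Among the kinases, Jak1 (-0.99) and Jak2 (-1.50) were lower, while Jak3, the partner of the common gamma chain, had 281, 246 and 276 CPM in FL G1-ILCs and 282, 224 and 220 CPM in BM iILC1s, which overlapped. Stat5b, which carries signals of interleukin-7 and interleukin-15, had 58.8, 51.5 and 70.4 CPM in FL G1-ILCs and 162, 112 and 115 CPM in BM iILC1s (log2 fold change -1.11 ± 0.16, adjusted p = 6.32e-06). The other STAT5 gene, Stat5a, averaged 40.0 CPM in FL G1-ILCs and 41.1 CPM in BM iILC1s and was not called (-0.04, adjusted p = 0.884). Stat4, which acts below the interleukin-12 receptor, was lower by the same test (-0.99, adjusted p = 8.95e-08). The 2 genes that were higher encode brakes on this pathway, Socs1 (0.49) and the phosphatase gene Ptpn6 (0.50). Other brakes of the list were lower: Socs2 (-1.43, a mean of 125 CPM in FL G1-ILCs and 339 CPM in BM iILC1s), Socs5 (-0.78) and Pias1 (-0.29). Cish, Socs3, Socs4, Socs6, Socs7 and Ptpn2 were not called.

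**Figure D2:**
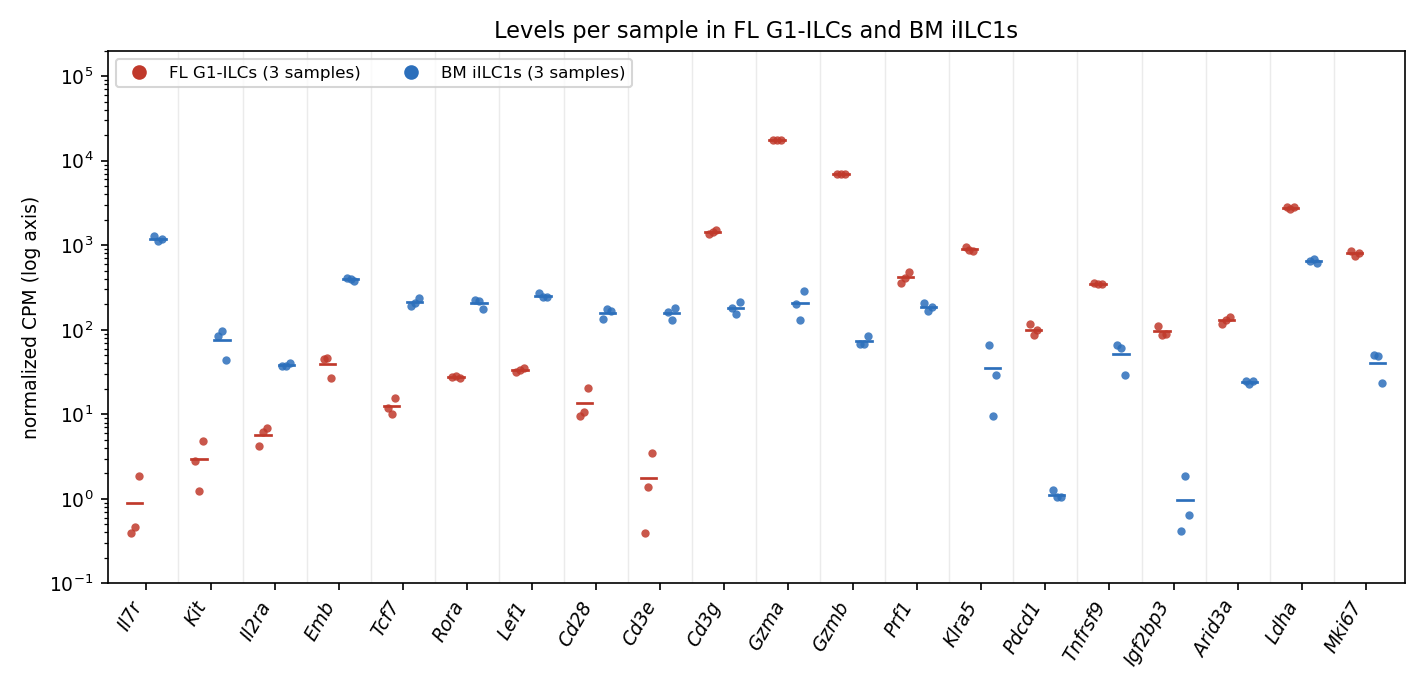
Normalized CPM on a log axis for 20 genes in the 3 FL G1-ILC samples (red, left) and the 3 BM iILC1 samples (blue, right), each point a sample and each bar the mean of its group. The 2 groups do not overlap in any of the genes drawn, and Il7r, Kit and Cd3e fall in FL G1-ILCs to a few CPM or less while Gzma and Gzmb are the highest of the genes drawn.

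The transcripts of granzymes A and B were far higher in FL G1-ILCs. Gzma (ENSMUSG00000023132, mm10 chr13:113093825-113100981), the gene of the trypsin-like granzyme A, had 17755, 17662 and 17748 CPM in FL G1-ILCs, against 203, 131 and 287 CPM in BM iILC1s. Gzmb (ENSMUSG00000015437, mm10 chr14:56258838-56262260), whose product cleaves caspases in target cells, had 6949, 6894 and 6946 CPM in FL G1-ILCs and 67.6, 67.4 and 85.6 CPM in BM iILC1s. The log2 fold changes were 6.42 ± 0.19 for Gzma (edgeR adjusted p = 5.97e-16) and 6.56 ± 0.18 for Gzmb (adjusted p = 3.25e-16), and no FL G1-ILC sample came near a BM iILC1 sample. Gzmc was higher too, at 75.1, 74.0 and 55.0 CPM in FL G1-ILCs and 18.1, 2.51 and 9.34 CPM in BM iILC1s (log2 fold change 2.77). At low levels, Gzmk was higher (7.37, 4.29 and 6.44 CPM in FL G1-ILCs, 0.21, 0 and 0.212 CPM in BM iILC1s) and Gzmm was lower (1.59, 1.69 and 0.46 CPM in FL G1-ILCs, 3.57, 2.93 and 7.86 CPM in BM iILC1s).

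The rest of the killing machinery differed less. Of 24 cytotoxic granule genes tested, 13 were higher and 5 lower in FL G1-ILCs, with a median log2 fold change of 0.33. Prf1, the gene of the pore-forming perforin, had 362, 407 and 482 CPM in FL G1-ILCs and 207, 168 and 186 CPM in BM iILC1s (log2 fold change 1.16 ± 0.12, adjusted p = 6.23e-08). Nkg7, a granule membrane protein, rose by 0.50 on the log2 scale. Serpinb9b, of the family of granzyme inhibitors, averaged 32.0 CPM in FL G1-ILCs and 4.86 CPM in BM iILC1s. Of the genes of granule handling, 2 were among the 5 that fell: Lyst, the lysosomal trafficking regulator, had 28.5, 28.2 and 26.0 CPM in FL G1-ILCs and 245, 284 and 228 CPM in BM iILC1s (log2 fold change -3.19), and Rab27a, which docks granules at the membrane, had a log2 fold change of -0.70. Others did not fall: Stxbp2 was higher (0.26), and Unc13d, Stx11, Lamp1 and Lamp2 were not called.

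Of the 18 effector cytokine and chemokine genes tested, 4 were higher and 4 lower. Ccl4, an inflammatory chemokine gene, had 208, 203 and 234 CPM in FL G1-ILCs and 39.5, 63.4 and 55.6 CPM in BM iILC1s (log2 fold change 2.02), and Ccl3 followed with 1.49. Ifng, the signature cytokine of these cells, had 61.4, 69.4 and 83.0 CPM in FL G1-ILCs and 42.4, 51.9 and 55.4 CPM in BM iILC1s. Its groups did not overlap, but the call was a narrow one (log2 fold change 0.51 ± 0.20, adjusted p = 0.0381), and it was lost without any single sample other than BM iILC1 sample 3 (adjusted p = 0.0568 to 0.156). Xcl1, a chemokine that attracts cross-presenting dendritic cells, was lower (-0.65), and Ccl5 overlapped at 1531, 1813 and 1485 CPM in FL G1-ILCs and 1776, 1726 and 1756 CPM in BM iILC1s. The death ligand gene Fasl was higher (0.97, adjusted p = 1.75e-08), while Tnfsf10, the gene of TRAIL, overlapped at 94.9, 85.5 and 107 CPM in FL G1-ILCs and 93.0, 108 and 97.0 CPM in BM iILC1s.

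Genes of the dividing cell were higher in FL G1-ILCs almost without exception. All 47 DNA replication genes tested were higher (median log2 fold change 2.67), and of 52 mitosis genes 50 were higher and 1 lower (median 4.05), against 23.0% higher over all genes. Mki67, which marks cycling cells, had 847, 742 and 817 CPM in FL G1-ILCs and 49.97, 48.5 and 23.4 CPM in BM iILC1s (log2 fold change 4.30 ± 0.46, edgeR adjusted p = 1.54e-07). Pclaf, a partner of the sliding clamp PCNA that is outside both lists, had 957, 760 and 856 CPM in FL G1-ILCs and 30.03, 30.1 and 19.3 CPM in BM iILC1s. Among replication genes, Rrm2, a subunit of the enzyme that makes deoxynucleotides, had 769, 602 and 716 CPM in FL G1-ILCs and 44.5, 25.7 and 23.6 CPM in BM iILC1s. Mcm5, a subunit of the replicative helicase, averaged 495 CPM in FL G1-ILCs and 86.2 CPM in BM iILC1s (log2 fold change 2.52), and Pcna itself had a log2 fold change of 2.05.

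The mitotic genes spread further. Birc5, the survivin gene of the chromosomal passenger complex, had 441, 430 and 424 CPM in FL G1-ILCs and 17.01, 15.1 and 6.37 CPM in BM iILC1s, a log2 fold change of 5.07 ± 0.53 (adjusted p = 1.21e-07). Ccnb1, the cyclin of mitotic entry, had 249, 208 and 205 CPM in FL G1-ILCs and 11.97, 8.58 and 3.61 CPM in BM iILC1s (log2 fold change 4.77). Its kinase gene Cdk1 (4.41), the mitotic kinase gene Plk1 (4.62), the spindle factor gene Tpx2 (4.80), the kinetochore genes Cenpf (4.84) and Spc24 (4.74), and Cdc20 (3.64), which activates the anaphase-promoting complex, lay in the same range. BM iILC1 sample 3 was below samples 1 and 2 of its group in Mki67, Birc5, Ccnb1, Cdc20 and Plk1, and none of these samples reached the FL G1-ILC range. Pttg1, the securin gene, was the exception that fell, at 38.9, 34.8 and 31.0 CPM in FL G1-ILCs and 64.2, 55.9 and 51.6 CPM in BM iILC1s.

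Replication genes and mitotic genes are read from different promoter elements, the E2F site for the DNA synthesis phase and the CHR element for the later phases. Promoters were taken from RefSeq (GRCm38.p6) as 250 bases before and 50 bases after each start, and both strands were searched for 4 E2F-like words (TTTCCCGC, TTTGGCGC, TTTCGCGC, TTTGCCGC) and 2 CHR-like words (TTTGAA and also TTCGAA). E2F-like letters stood in 18 of 47 replication promoters (38.3%), in 4 of 46 mitosis promoters (8.7%) and in 744 of all 32851 promoters (2.26%). CHR-like letters stood in 9 of 47 replication promoters (19.1%), in 37 of 46 mitosis promoters (80.4%) and in 6316 of all promoters (19.2%). These promoters belong to 38 of the 47 replication genes and 43 of the 52 mitosis genes, and a match describes letters, not a bound site. The promoters of 5 of the genes above are shown 5′ to 3′ on the strand of the gene, with the matched letters in capitals, to set the 2 kinds side by side. Mcm5 (chr8:75109259-75109558, plus strand) and Pclaf (chr9:65890073-65890372, plus strand) hold E2F-like letters, overlapping on both strands in Mcm5. Cdc20 (chr4:118437294-118437593, minus strand) and Plk1 (chr7:122159185-122159484, plus strand) hold a CHR-like word, and Cdk1 (chr10:69352863-69353162, minus strand) holds 1 E2F-like and 2 CHR-like words.
Mcm5: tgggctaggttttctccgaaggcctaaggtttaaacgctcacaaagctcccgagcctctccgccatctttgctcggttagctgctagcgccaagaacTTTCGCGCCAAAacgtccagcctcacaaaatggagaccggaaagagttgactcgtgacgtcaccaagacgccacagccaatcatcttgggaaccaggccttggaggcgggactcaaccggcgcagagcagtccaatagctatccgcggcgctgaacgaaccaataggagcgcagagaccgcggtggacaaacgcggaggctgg
Pclaf: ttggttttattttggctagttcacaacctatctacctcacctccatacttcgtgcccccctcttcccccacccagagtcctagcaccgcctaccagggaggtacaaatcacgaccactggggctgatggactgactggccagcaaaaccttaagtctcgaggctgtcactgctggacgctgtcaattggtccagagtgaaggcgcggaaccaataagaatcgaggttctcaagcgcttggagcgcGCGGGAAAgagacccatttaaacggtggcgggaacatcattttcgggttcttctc
Cdc20: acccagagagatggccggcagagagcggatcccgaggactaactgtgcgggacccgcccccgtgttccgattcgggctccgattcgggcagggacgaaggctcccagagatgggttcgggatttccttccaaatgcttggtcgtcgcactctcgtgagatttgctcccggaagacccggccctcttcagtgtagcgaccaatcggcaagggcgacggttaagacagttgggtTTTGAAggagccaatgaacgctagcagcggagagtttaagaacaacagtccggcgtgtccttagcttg
Plk1: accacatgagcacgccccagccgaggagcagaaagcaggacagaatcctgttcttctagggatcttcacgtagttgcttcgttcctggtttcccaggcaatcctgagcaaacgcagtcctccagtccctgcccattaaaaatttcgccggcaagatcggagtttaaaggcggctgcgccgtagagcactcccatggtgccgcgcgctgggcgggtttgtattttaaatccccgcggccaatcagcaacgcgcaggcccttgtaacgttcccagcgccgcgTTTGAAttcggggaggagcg
Cdk1: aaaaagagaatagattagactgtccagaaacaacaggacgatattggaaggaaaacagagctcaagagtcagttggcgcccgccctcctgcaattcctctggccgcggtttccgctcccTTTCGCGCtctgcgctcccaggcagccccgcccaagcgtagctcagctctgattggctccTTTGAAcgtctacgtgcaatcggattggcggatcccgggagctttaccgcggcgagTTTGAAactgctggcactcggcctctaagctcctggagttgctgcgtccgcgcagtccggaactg

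Histone genes that are made during DNA synthesis went the same way among those with enough counts. Of 68 listed, 42 did not pass the filter on low counts, and of the 26 tested, 16 were higher and 1 lower, with a median log2 fold change of 2.49. Hist1h1b, a linker histone gene, had 67.2, 46.7 and 63.2 CPM in FL G1-ILCs and 1.89, 0.209 and 1.06 CPM in BM iILC1s. Reads of near-identical histone genes may be split between copies, so single members are uncertain. Of 14 cell cycle inhibitors, 5 were higher and 6 lower. Those that fell included genes of resting lymphocytes, Btg1 (156, 190 and 188 CPM in FL G1-ILCs, 584, 546 and 610 CPM in BM iILC1s; log2 fold change -1.70), Btg2 (-1.11) and Cdkn1b (-0.83). Those that rose included Cdkn1a, the p21 gene, at 31.3, 30.03 and 26.0 CPM in FL G1-ILCs and 3.78, 2.51 and 1.27 CPM in BM iILC1s, and Cdkn2c (1.93). The pocket protein genes split, with Rbl1 higher (1.38) and Rbl2 lower (-1.01).

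Of 20 genes of DNA methylation and Polycomb repression, 9 were higher and 5 lower in FL G1-ILCs. Uhrf1, which brings the maintenance methyltransferase to newly copied DNA, had 346, 323 and 295 CPM in FL G1-ILCs and 19.1, 23.0 and 8.07 CPM in BM iILC1s (log2 fold change 4.26), and the methyltransferase gene Dnmt1 had 564, 483 and 508 CPM against 202, 171 and 160 CPM (1.54). The 2 alternative catalytic subunits of the Polycomb complex PRC2 moved in opposite directions. Ezh2 had 142, 137 and 127 CPM in FL G1-ILCs and 22.5, 28.7 and 27.6 CPM in BM iILC1s (log2 fold change 2.36 ± 0.28, adjusted p = 6.35e-07). Ezh1 had 65.0, 69.6 and 79.6 CPM in FL G1-ILCs and 175, 152 and 121 CPM in BM iILC1s (log2 fold change -1.07 ± 0.16, adjusted p = 8.71e-06). The chromobox genes of PRC1 split in the same manner, Cbx2 at 2.24 and Cbx7 at -2.26.

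**Figure D3:**
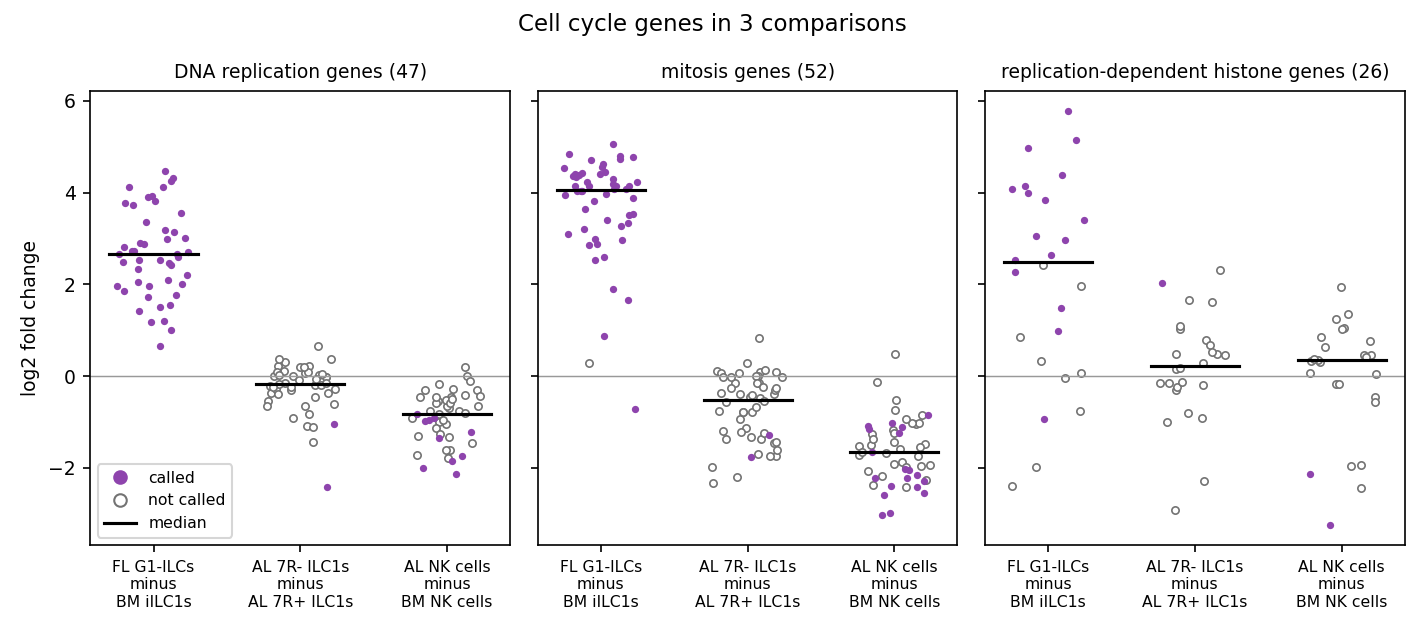
Log2 fold changes (edgeR) of the tested DNA replication, mitosis and replication-dependent histone genes in 3 comparisons, filled where called at an adjusted p under 0.05 and open where not, with the median as a bar. In FL G1-ILCs minus BM iILC1s the medians are 2.67, 4.05 and 2.49, while the DNA replication and mitosis genes lie around or below 0 in the adult liver ILC1 pair and in the NK cell pair.

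The protein-making and energy genes were shifted together, each by a modest amount. Of 79 cytosolic ribosomal protein genes tested, 71 were higher and none lower (median log2 fold change 0.66), as were 59 of 77 mitochondrial ribosomal protein genes (0.68). Oxidative phosphorylation subunits encoded in the nucleus were higher in 71 of 76 (0.88), and all 37 proteasome subunits tested were higher (0.84). Most of these were under 2-fold. At an absolute log2 fold change over 1, the members that remained higher were 7 of 79, 18 of 77, 18 of 76 and 9 of 37 in these 4 lists. Over all genes, 1340 of 13424 were higher at that threshold. Examples are Rpl28 (137, 148 and 149 CPM in FL G1-ILCs, 54.2, 61.7 and 61.2 CPM in BM iILC1s), the ATP synthase gene Atp5g3 (382, 304 and 346 CPM in FL G1-ILCs, 123, 127 and 115 CPM in BM iILC1s) and the catalytic proteasome subunit gene Psmb5 (158, 150 and 155 CPM in FL G1-ILCs, 62.4, 61.5 and 72.2 CPM in BM iILC1s). Reads of ribosomal protein genes may be shared with their many pseudogenes. Of the 12 mRNAs encoded by the mitochondrial genome itself, 4 were higher and 8 were not called (median 0.23), with mt-Co1 at 1117, 1154 and 1202 CPM in FL G1-ILCs and 835, 792 and 881 CPM in BM iILC1s.

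Of 29 glycolysis and hypoxia genes, 17 were higher and 2 lower (median log2 fold change 0.73). Ldha, which turns pyruvate into lactate, had 2834, 2689 and 2806 CPM in FL G1-ILCs and 660, 694 and 625 CPM in BM iILC1s (log2 fold change 2.07 ± 0.11, edgeR adjusted p = 8.45e-12). Tpi1, an enzyme of the middle of the pathway, had 817, 780 and 864 CPM in FL G1-ILCs and 173, 176 and 149 CPM in BM iILC1s (2.31), and the lactate exporter gene Slc16a3 followed (2.71). The glucose transporter gene Slc2a1 (adjusted p = 0.2) and Hif1a (adjusted p = 0.338), the transcription factor gene of the hypoxia response, did not pass the test. Sterol and fatty acid synthesis genes were higher in 20 of 31 and lower in 1 (median 1.05). Scd2, a desaturase, had 375, 342 and 380 CPM in FL G1-ILCs and 53.5, 48.3 and 55.4 CPM in BM iILC1s (2.80), Sqle (3.26) and Idi1 (2.76), enzymes of cholesterol synthesis, were higher, and the acetyl-CoA synthetase gene Acss2 was the member that fell (-2.54). Among 30 amino acid, iron and PI3K-mTOR genes the calls were mixed, 10 higher and 9 lower, with the leucine carrier gene Slc7a5 (2.59) and the transferrin receptor gene Tfrc (1.84) higher and Pik3ip1, an inhibitor of PI3K, lower (23.3, 25.1 and 32.2 CPM in FL G1-ILCs, 194, 175 and 190 CPM in BM iILC1s). Of 20 chaperone genes, 14 were higher and 3 lower, with the mitochondrial pair Hspd1 (1.24) and Hspe1 (1.53) among those that rose.

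Transcription factors leaned the other way. Of 43 lineage transcription factors tested, 9 were higher and 20 lower in FL G1-ILCs (median log2 fold change -0.37). Tcf7, which encodes TCF-1 and is required in early ILC precursors, had 11.8, 10.1 and 15.6 CPM in FL G1-ILCs and 190, 206 and 239 CPM in BM iILC1s (log2 fold change -4.10 ± 0.22, edgeR adjusted p = 6.22e-12). Its relative Lef1 had 31.3, 33.7 and 34.96 CPM in FL G1-ILCs and 270, 241 and 244 CPM in BM iILC1s (-2.92). Rora, which ILC2s need and which marks many ILC precursors, had 27.5, 28.5 and 27.1 CPM in FL G1-ILCs and 222, 220 and 176 CPM in BM iILC1s (-2.89). None of these 3 genes overlapped between the groups. Zbtb20 (-3.08), Ets1 (-1.62) and Gata3 (-0.91) were lower as well.

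The factors that define group 1 cells differed little. Tbx21, the T-bet gene, had 640, 656 and 612 CPM in FL G1-ILCs and 744, 863 and 862 CPM in BM iILC1s, a log2 fold change of -0.37 ± 0.08 (adjusted p = 0.00101). Id2, the repressor shared by all ILCs, differed by -0.17 ± 0.06, a call that was lost in several alternatives. Higher in FL G1-ILCs were Nfil3 (101, 110 and 122 CPM in FL G1-ILCs, 46.0, 44.4 and 73.7 CPM in BM iILC1s), a factor of early NK and ILC commitment, Irf8 (1.54), Hic1 (2.65) and Zfp683, the Hobit gene of tissue-resident lymphocytes, at 70.3, 89.6 and 83.5 CPM in FL G1-ILCs and 54.6, 44.6 and 44.4 CPM in BM iILC1s (0.76). Zbtb16, the PLZF gene of ILC precursors, overlapped at 34.1, 16.9 and 18.2 CPM in FL G1-ILCs and 15.96, 20.1 and 15.1 CPM in BM iILC1s. Of 11 Kruppel-like factors, 7 were lower and 1 higher: Klf3 had 22.1, 18.7 and 26.0 CPM in FL G1-ILCs and 312, 280 and 289 CPM in BM iILC1s (-3.73), and Klf2, which keeps lymphocytes quiescent and drives tissue exit, had 97.8, 118 and 71.98 CPM in FL G1-ILCs and 218, 229 and 260 CPM in BM iILC1s (-1.29).

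Genes of the fetal blood program were higher. Of 14 listed, 6 passed the filter on low counts, and 5 of these were higher. Igf2bp3 (ENSMUSG00000029814, mm10 chr6:49085223-49214957), an RNA-binding protein gene on in fetal blood stem cells, had 112, 87.2 and 89.2 CPM in FL G1-ILCs and 0.42, 1.88 and 0.637 CPM in BM iILC1s (log2 fold change 6.58 ± 0.51, adjusted p = 1.16e-09). Lin28b, which blocks maturation of let-7 microRNAs, had 10.8, 11.8 and 8.51 CPM in FL G1-ILCs and 0.63, 0.419 and 0.637 CPM in BM iILC1s (4.15). Arid3a, a factor of fetal lymphocyte development, had 117, 130 and 140 CPM in FL G1-ILCs and 24.8, 22.6 and 24.6 CPM in BM iILC1s (2.42), and Hmga1, a chromatin protein gene, had 1.12.

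Receptors of the Ly49 family, which read MHC class I on other cells, were mostly lower. Of 10 Ly49 genes tested, 8 were lower and 1 higher, with a median log2 fold change of -4.20. Klra1 (ENSMUSG00000079853, mm10 chr6:130363917-130386874) was at 0 in all FL G1-ILC samples and had 106, 103 and 128 CPM in BM iILC1s, which makes it at least 594.5-fold lower against a floor of 3 counts over the FL G1-ILC group. Klra7 had 9.17, 2.3 and 10.6 CPM in FL G1-ILCs and 288, 269 and 310 CPM in BM iILC1s (log2 fold change -5.38 ± 0.31, edgeR adjusted p = 1.82e-11). Klra9 had 6.38, 7.05 and 4.37 CPM in FL G1-ILCs and 108, 81.8 and 117 CPM in BM iILC1s (-4.07). The exception was Klra5 (ENSMUSG00000030173, mm10 chr6:129898996-129917650), which encodes Ly49E and had 950, 886 and 866 CPM in FL G1-ILCs against 66.8, 9.63 and 29.1 CPM in BM iILC1s (4.68 ± 0.38, adjusted p = 2.19e-09). Ly49 genes are close copies of each other, so reads may be shared among them and single levels are uncertain.

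Among 18 other NK receptor genes, 3 were higher and 9 lower. Klrk1, the NKG2D gene, had 983, 977 and 975 CPM in FL G1-ILCs and 2140, 2243 and 2117 CPM in BM iILC1s (log2 fold change -1.15), and Klrb1f had -2.16. Klrd1, the CD94 gene that pairs with NKG2 chains, was higher at 1269, 1359 and 1435 CPM in FL G1-ILCs and 902, 814 and 827 CPM in BM iILC1s (0.68), as were Klre1 (0.63) and the Fc receptor gene Fcgr3 (0.88).

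The chains of the CD3 complex, absent from the surface of both gates, did not move together. Cd3g (ENSMUSG00000002033, mm10 chr9:44969572-44980431) had 1342, 1440 and 1531 CPM in FL G1-ILCs, against 183, 153 and 212 CPM in BM iILC1s (log2 fold change 2.98 ± 0.14, edgeR adjusted p = 8.97e-13). Its neighbour Cd3e (ENSMUSG00000032093, mm10 chr9:44998740-45009627) had 0.399, 1.38 and 3.45 CPM in FL G1-ILCs and 162, 129 and 180 CPM in BM iILC1s (-6.54 ± 0.57, adjusted p = 1.25e-08). Cd3d had 44.6, 39.4 and 90.2 CPM in FL G1-ILCs and 126, 93.5 and 141 CPM in BM iILC1s. Whether the counting used strand is not given in the sources used here, so overlapping reads between neighbouring or antisense genes cannot be separated.

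Several transcripts of T cell receptor loci were also higher in BM iILC1s. This set, with Cd4, Cd5, Cd8a, Tcrg-C1 and Tcrg-C4, was chosen after its values were seen. The 34 beta chain V segments in the table summed to 1.79, 0.766 and 0.46 CPM in FL G1-ILCs, against 104, 88.9 and 108 CPM in BM iILC1s. Trac, the constant segment of the alpha chain, had 15.3, 9.81 and 11.3 CPM in FL G1-ILCs and 149, 141 and 214 CPM in BM iILC1s, while the beta constant genes Trbc1 (adjusted p = 0.0897) and Trbc2 (adjusted p = 0.0713) were not called, although Trbc2 was with a replicate block (adjusted p = 0.0273). The gamma constant gene Tcrg-C4 had 12.6, 11.3 and 6.67 CPM in FL G1-ILCs and 281, 266 and 220 CPM in BM iILC1s, with 133 to 179 CPM in AL 7R- ILC1s and 436 to 475 CPM in AL 7R+ ILC1s. Gamma V segments summed to 1.61 to 3.79 CPM in FL G1-ILCs, 36.1 to 40.8 CPM in BM iILC1s and 42.0 to 50.6 CPM in AL 7R+ ILC1s. Not all such transcripts were low in FL G1-ILCs: delta V segments summed to 70.5, 61.9 and 61.4 CPM in FL G1-ILCs and 147, 144 and 137 CPM in BM iILC1s, and Tcrg-C1 overlapped at 30.7, 36.5 and 14.3 CPM in FL G1-ILCs and 43.5, 25.1 and 33.6 CPM in BM iILC1s. The coreceptor genes were near the floor in both groups: Cd4 stood at 0.46 to 3.39 CPM in FL G1-ILCs and 2.3 to 4.03 CPM in BM iILC1s, and Cd8a at 0.598 to 1.23 CPM in FL G1-ILCs and 0.21 to 3.61 CPM in BM iILC1s. Of the 11 T cell markers tested, 1 was higher and 6 were lower in FL G1-ILCs. Among them, Cd5 was at 0 in FL G1-ILCs and had 2.73, 8.58 and 14.9 CPM in BM iILC1s, at least 46.1-fold lower against the same floor. In BM NK cells the beta chain V segments summed to 0.75 to 3.22 CPM, and in the adult liver groups to at most 5.84 CPM. The part of these transcripts in the differences of genes that T cells share with ILCs (Il7r, Tcf7, Lef1, Cd28) was not tested. Of 27 CD3 chains and signalling adaptors, 9 were higher and 12 lower. The adaptor gene Sh2d1a, which works below SLAM receptors, was lower (2.19, 2.76 and 4.14 CPM in FL G1-ILCs, 42.4, 31.2 and 47.1 CPM in BM iILC1s), and Sh2d2a (1.46), Lat2 (1.06) and Fcer1g (0.41) were higher.

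Costimulatory and checkpoint receptors split between the groups, 8 higher and 10 lower of 23 tested. Pdcd1, the PD-1 gene, had 116, 86.4 and 98.2 CPM in FL G1-ILCs and 1.26, 1.05 and 1.06 CPM in BM iILC1s (log2 fold change 6.45 ± 0.45, edgeR adjusted p = 2.62e-10). Tigit (1.52) and Slamf7 (1.68) rose with it. Cd28 had 9.57, 10.6 and 20.2 CPM in FL G1-ILCs and 133, 176 and 166 CPM in BM iILC1s (-3.58), and Icos, Crtam and Slamf6 had log2 fold changes of -3.15, -3.59 and -3.82. Of 19 genes of the TNF superfamily and its receptors, 2 were higher and 9 lower. Tnfrsf9, the 4-1BB gene induced by activation, had 354, 348 and 351 CPM in FL G1-ILCs and 66.1, 60.5 and 29.5 CPM in BM iILC1s (2.75). Cd27, lost by mature NK cells, had 32.3, 37.4 and 37.3 CPM in FL G1-ILCs and 142, 123 and 158 CPM in BM iILC1s (-1.98), and Tnfrsf25 (-2.40) and Ltb (-1.47) were lower too.

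Genes of migration and exit were lower in FL G1-ILCs: 14 of 24 chemokine receptor and tissue exit genes were lower and 2 higher (median log2 fold change -0.96). S1pr1, the receptor that draws lymphocytes into blood and lymph, had 33.1, 51.2 and 34.5 CPM in FL G1-ILCs and 166, 130 and 183 CPM in BM iILC1s (edgeR adjusted p = 3.99e-07), and Cxcr4, which holds cells in the marrow, had a log2 fold change of -2.49. Gpr183, which senses oxysterols, had 10.8, 9.04 and 5.75 CPM in FL G1-ILCs and 165, 129 and 136 CPM in BM iILC1s (-4.05). Of 26 integrin and adhesion genes, 17 were lower and 1, Itgam, higher, a call lost without FL G1-ILC sample 4 (adjusted p = 0.0632), and Emb, the embigin gene, was among those that fell (45.0, 46.0 and 27.1 CPM in FL G1-ILCs, 409, 402 and 380 CPM in BM iILC1s). Vcam1 (3.19, 5.97 and 0.92 CPM in FL G1-ILCs, 47.7, 55.2 and 66.5 CPM in BM iILC1s) and the complement genes C1qa, C1qb and C1qc, with 21.1 to 54.4 CPM in BM iILC1s, are also genes of marrow macrophages, and the C1q genes count among the myeloid markers summed above. The part of such cells in these results was not tested.

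Interferon-stimulated genes were lower in 25 of 36 and higher in 1 (median log2 fold change -0.90). Without single samples, 0 to 4 members were higher, 4 of them without BM iILC1 sample 3. Ifi203 had 131, 143 and 119 CPM in FL G1-ILCs and 536, 512 and 466 CPM in BM iILC1s (-1.94 ± 0.10, edgeR adjusted p = 3.06e-12), while the more variable Ifit3 had 1.99, 2.76 and 1.38 CPM in FL G1-ILCs and 27.9, 7.74 and 36.1 CPM in BM iILC1s (-3.49). Ifit1bl1, of the same family, was at 0 in FL G1-ILCs and at 42.0, 35.4 and 44.6 CPM in BM iILC1s, at least 215.3-fold lower against the same floor. Of the 4 IFITM genes tested, of a family that restricts virus entry, 3 were higher. Ifitm1 had 254, 313 and 270 CPM in FL G1-ILCs and 0.42, 0 and 0.849 CPM in BM iILC1s (9.29 ± 0.47, adjusted p = 2.23e-12), with Ifitm2 (5.18) and Ifitm3 (4.04) next to it, while Ifitm10 overlapped at 149, 172 and 180 CPM in FL G1-ILCs and 173, 131 and 177 CPM in BM iILC1s. IFITM genes are related to each other, so some reads may be split among them. Of 25 MHC class I and peptide loading genes, 12 were lower and 8 higher. The classical heavy chain gene H2-K1 (-0.57) and B2m (-0.50) were among those lower, and the peptide supply genes Psme2 (0.75) and Psmb9 (0.61) and the chaperone gene Calr (0.64) among those higher.

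Survival genes were balanced, with 7 of 15 BCL2 family genes higher and 7 lower. Bcl2 itself had 939, 993 and 978 CPM in FL G1-ILCs and 1653, 1546 and 1476 CPM in BM iILC1s (log2 fold change -0.68), Bcl2l1, the BCL-XL gene, was higher (0.64), and the killer genes split as well, with Bbc3, the PUMA gene, lower (-2.72) and Pmaip1, the NOXA gene, higher (5.17). Both galectin genes described here rose: Lgals1 had 1549, 1671 and 1744 CPM in FL G1-ILCs and 318, 278 and 251 CPM in BM iILC1s (2.55), and Lgals3 had 403, 518 and 582 CPM in FL G1-ILCs and 56.1, 64.0 and 50.5 CPM in BM iILC1s (3.14). In adenosine production, Entpd1, the CD39 gene, rose, at 124, 125 and 125 CPM in FL G1-ILCs and 21.2, 33.7 and 32.3 CPM in BM iILC1s, and Nt5e, the CD73 gene of the next step, fell (-2.46), at 11.2, 10.1 and 11.04 CPM in FL G1-ILCs and 55.0, 68.2 and 54.4 CPM in BM iILC1s. Outside the lists, the largest differences included Htra3 (7.56; 58.6, 76.0 and 78.0 CPM in FL G1-ILCs, 0, 0.628 and 0.425 CPM in BM iILC1s), the Wnt carrier gene Wls (-4.90), Cpne7 (-6.31), Atp8a2 (-4.85) and Cd74 (-7.04), the last a gene of antigen-presenting cells at 232, 158 and 66.9 CPM in BM iILC1s.

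Of the 20 genes of an ILC1 signature, 5 were higher and 8 lower in FL G1-ILCs, among the lower ones the ion channel genes Tmem176a (-4.64) and Tmem176b (-5.12). Of the 19 genes of an NK cell signature, 5 were higher and 10 lower. TGF-beta pathway genes had 1 higher and 6 lower of 20, and early response genes 6 higher and 8 lower of 30.

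The same genes were then read in 2 comparisons that share no library with FL G1-ILCs minus BM iILC1s. AL 7R- ILC1s against AL 7R+ ILC1s asks how IL-7R divides the ILC1s of 1 adult organ, so that Il7r there belongs to the gate, and AL NK cells against BM NK cells asks how liver and marrow differ in another cell type. Between AL 7R- and AL 7R+ ILC1s 852 genes were called (6.35%), 375 higher (2.79%) and 477 lower (3.55%), and between AL NK and BM NK cells 481 (3.58%), 259 higher (1.93%) and 222 lower (1.65%). Of the 375 genes higher in AL 7R- ILC1s, 195 (52% of them, and 6.32% of the 3086) were also higher in FL G1-ILCs and 53 were lower. Of the 477 genes lower in AL 7R- ILC1s, 320 (67.1% of them, and 11.3% of the 2828) were also lower in FL G1-ILCs and 51 were higher. Across all 13424 genes the 2 sets of log2 fold changes had a Pearson r of 0.20 (Spearman 0.14), a description over genes, which are not independent. Of the 222 genes lower in AL NK than BM NK cells, 134 (60.4%) were higher and 52 (23.4%) lower in FL G1-ILCs, while the 259 genes higher in AL NK cells split into 84 (32.4%) higher and 91 (35.1%) lower. The log2 fold changes of the 2 organ comparisons had a Pearson r of -0.08 (Spearman -0.15) over the same genes.

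The differences of these comparisons were tested directly. FL G1-ILCs minus BM iILC1s differed from AL 7R- minus AL 7R+ ILC1s in 3964 genes (29.5%; 2154 higher, 16.0%, and 1810 lower, 13.5%) and from AL NK minus BM NK cells in 4323 genes (32.2%; 2299 higher, 17.1%, and 2024 lower, 15.1%). Gzma averaged 9170 CPM in AL 7R- ILC1s and 1328 CPM in AL 7R+ ILC1s, and the step was smaller than between FL G1-ILCs and BM iILC1s (difference 3.63, edgeR adjusted p = 1.8e-10). Cd3g, with 1999 CPM in AL 7R- ILC1s and 212 CPM in AL 7R+ ILC1s, gave a step that did not differ beyond the error (difference -0.26, adjusted p = 0.3). Klra5 likewise averaged 549 CPM in AL 7R- ILC1s and 19.2 CPM in AL 7R+ ILC1s (difference -0.23, adjusted p = 0.77), and Htra3 117 CPM and 0.334 CPM. Tcf7 was lower in AL 7R- ILC1s too, at 9.52 CPM against 85.9 CPM in AL 7R+ ILC1s, as was Cd28, at 3.15 CPM against 92.4 CPM. Emb fell further in the adult pair, to 0.594 CPM in AL 7R- ILC1s against 82.2 CPM in AL 7R+ ILC1s (difference 3.94, adjusted p = 1.1e-06).

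**Figure D4:**
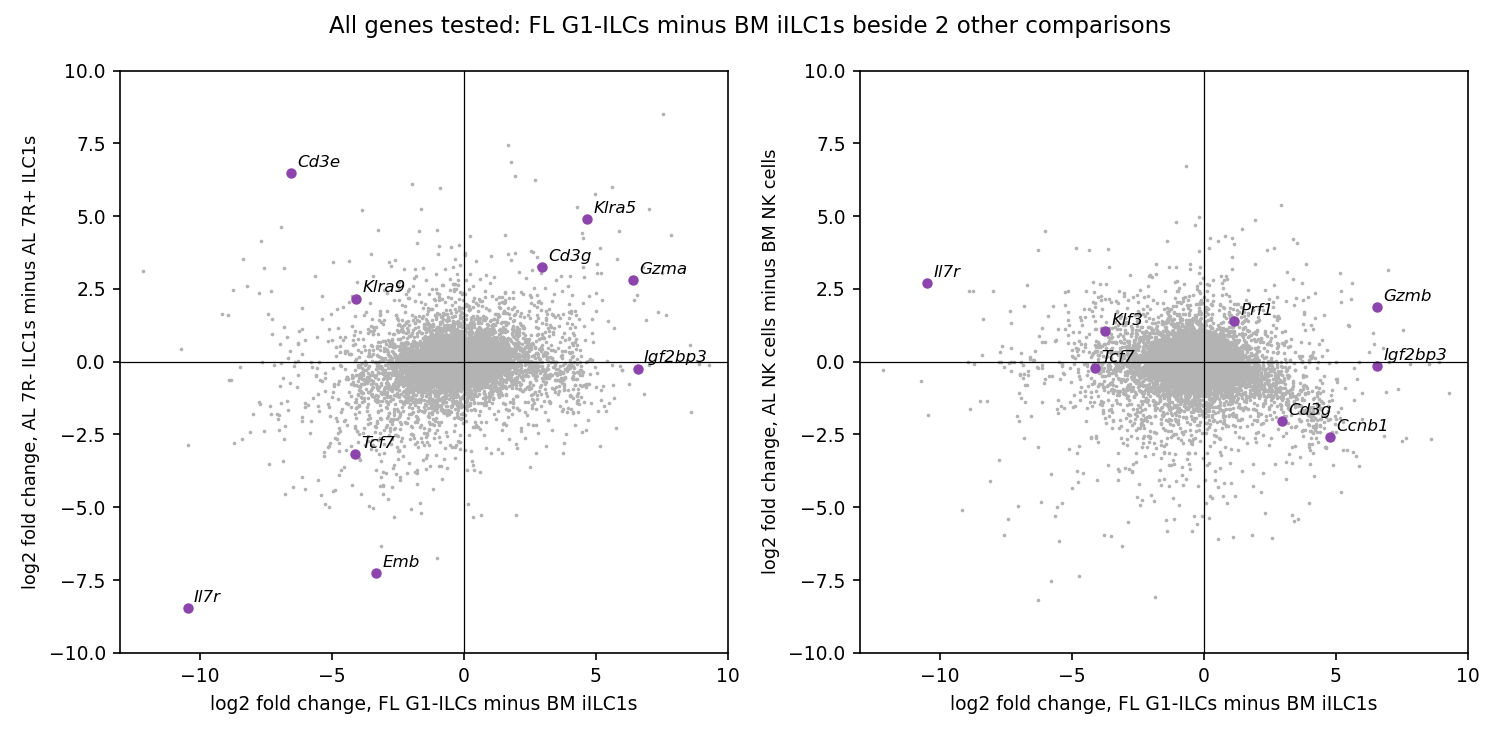
Log2 fold changes (edgeR) of the 13424 genes tested in FL G1-ILCs minus BM iILC1s (horizontal axis) beside AL 7R- minus AL 7R+ ILC1s (left) and AL NK minus BM NK cells (right), with named genes in purple. Il7r, Tcf7 and Emb lie in the lower left and Gzma, Klra5 and Cd3g in the upper right of the left panel, while Igf2bp3 lies near 0 on both vertical axes.

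Other groups of genes parted ways. The 47 DNA replication genes had 0 higher and 2 lower between AL 7R- and AL 7R+ ILC1s and 0 higher and 10 lower between AL NK and BM NK cells, and 46 of them were higher in FL G1-ILCs minus BM iILC1s than in each of these by the test of the difference. Mitosis genes had 0 higher and 2 lower in the adult liver ILC1 pair and 0 higher and 19 lower in the NK cell pair, with Mki67 at 37.1 CPM in AL NK cells and 193 CPM in BM NK cells. Igf2bp3 averaged 0.859 CPM in AL 7R- ILC1s and 1.08 CPM in AL 7R+ ILC1s, and Ifitm1 2.12 CPM and 2.36 CPM, so that neither FL G1-ILC gene was found in adult liver ILC1s at its fetal level. Cytosolic ribosomal protein genes had 1 higher and 1 lower of 79 in the adult liver ILC1 pair, and 0 higher and 19 lower in the NK cell pair, against 71 higher in FL G1-ILCs.

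Ly49 genes ran in opposite directions. Between AL 7R- and AL 7R+ ILC1s, 8 of the 10 tested were higher and none lower, where FL G1-ILCs had 8 lower and 1 higher against BM iILC1s, and the test of the difference called 9 of 10 lower. Klra9 averaged 474 CPM in AL 7R- ILC1s and 106 CPM in AL 7R+ ILC1s (log2 fold change 2.17, edgeR adjusted p = 8.1e-09), where FL G1-ILCs averaged 5.93 CPM and BM iILC1s 102 CPM. Klra1 averaged 3.64 CPM in AL 7R- ILC1s, 0.408 CPM in AL 7R+ ILC1s, 85.3 CPM in AL NK cells and 105 CPM in BM NK cells. Cd3e also turned round, at 18.4 CPM in AL 7R- ILC1s against 0.188 CPM in AL 7R+ ILC1s (difference -13.01, adjusted p = 6.6e-09).

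**Figure D5:**
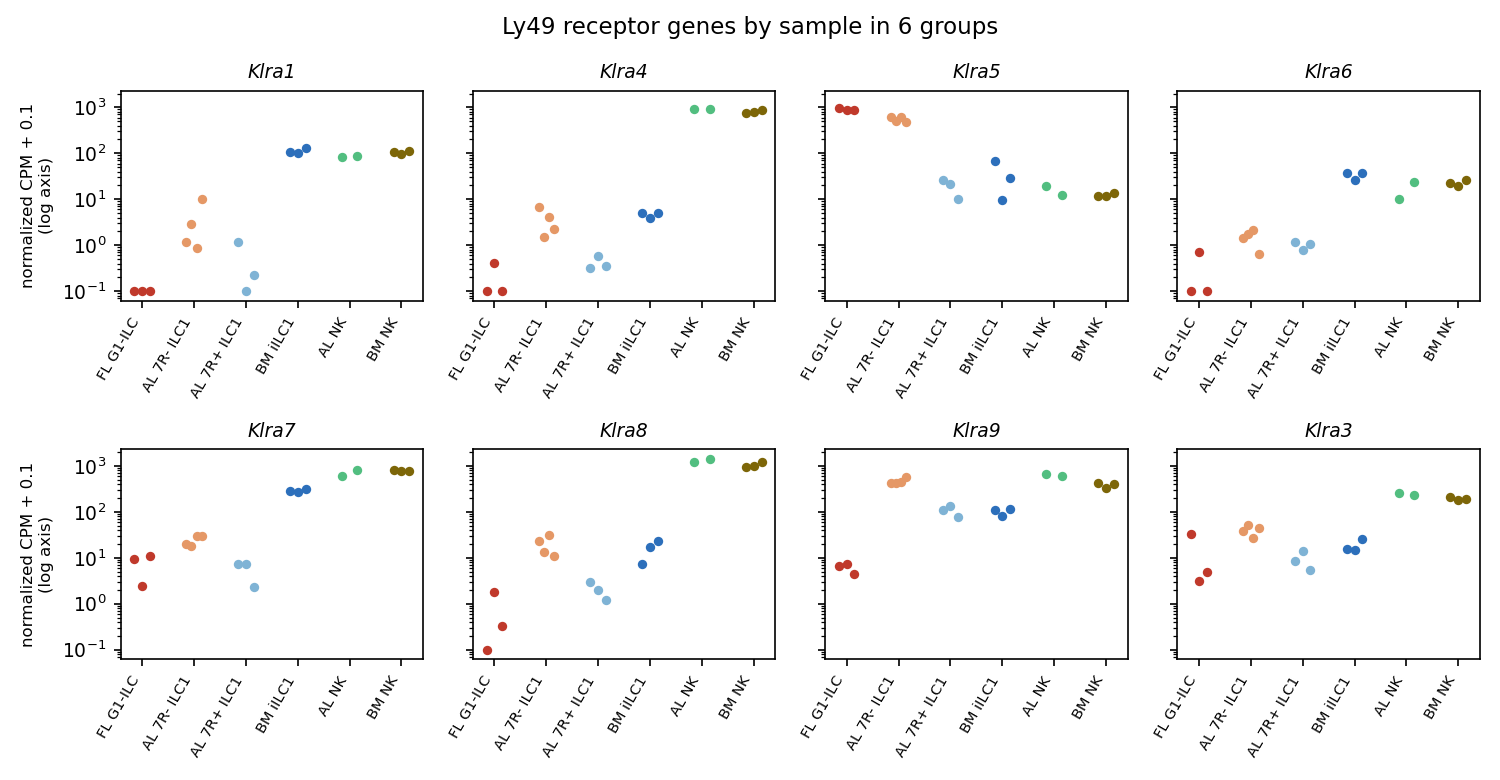
Normalized CPM plus 0.1 on a log axis for 8 Ly49 genes in every sample of 6 groups, each point a sample. Klra5 is highest in FL G1-ILCs, then AL 7R- ILC1s, while Klra1, Klra6 and Klra7 are low in all liver ILC1 groups and higher in BM iILC1s and NK cells, and Klra9 is high in AL 7R- ILC1s and lowest in FL G1-ILCs.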

How the data were processed

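RNA of 2000 sorted cells per sample, per the labels (the study's methods give another number), was made into libraries with a SMART-seq HT kit and sequenced as paired reads. The deposited values are counts: per the submitters' processing notes and the study's methods the authors used fastp 0.23.0 for trimming, HISAT2 2.1.0 for alignment to the mm10 genome, and featureCounts (Subread 1.6.5) for the counts per gene. The annotation release and the settings for strand and multi-mapping reads are not given in the sources used here, which bears on paralogs and overlapping genes. Of the 46078 genes in the table, 849, with 0.104% of the counts, had no match in the GENCODE vM21 annotation used here for names and coordinates.

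From the counts, edgeR 4.0.16 (R 4.3.3) with TMM scaling and filterByExpr (minimum count 10) was fitted to 18 samples of 6 groups with no covariate, FL G1-ILC libraries 2 and 3 summed, and contrasts were tested by quasi-likelihood with Benjamini-Hochberg adjustment, called under 0.05. Totals were 2302643 to 7995906 over all 25 libraries, and the test was checked on simulated counts. A gene at 0 in a group is given as a bound against 3 counts over that group. Genes were named by 3 rules: in each direction up to 12 genes of largest change that were called without overlap, at an average log2 CPM of 5 or more; genes the study names for these subsets; and up to 4 per direction of each list with a mean of 20 CPM or more in a group, with the list's defining members. Genes given outside these rules include the T cell receptor set, said above to have been chosen after its values were seen. Mpo, Hba-a1, Slc4a1, the embryonic globin genes, Gzmk, Gzmm and Ifitm10 also fall outside them. So do Stat5a, Cish, Pias1, Ptpn2, Socs3, Socs4, Socs5, Socs6, Socs7, Stxbp2, Unc13d, Stx11, Lamp1 and Lamp2. Members and lists were chosen with earlier results of these data known. Alternatives were RLE scaling, other filters, other samples in the fit, thinning to the shallowest library, other thresholds, a replicate block, DESeq2 1.42.0, and leaving out each sample. Some results are not reported here because they need withheld items.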

Additional observations from a re-analysis of the deposited data

Results flagged for a closer look

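Among the 40 genes with the largest changes or named by the study for these subsets, 11 were called in opposite directions in FL G1-ILCs minus BM iILC1s and in another comparison, with a called test of the difference itself (edgeR, adjusted over 13424 genes). The 4 that differed in adult liver were Ly49 genes, lower in FL G1-ILCs but higher in AL 7R- than AL 7R+ ILC1s: the difference of the log2 fold changes was -15.28 for Klra1, -8.37 for Klra4, -7.65 for Klra7, -7.79 for Klra8. Klra1 was at 0 in FL G1-ILCs, so its fitted difference depends on the prior count. Klra4 and Klra8 were low outside NK cells, so their differences rest on low counts. Klra4 had 0 to 0.306 CPM in FL G1-ILCs, 3.77 to 5.04 CPM in BM iILC1s and 0.22 to 0.469 CPM in AL 7R+ ILC1s. It had 1.43 to 6.63 CPM in AL 7R- ILC1s and 760 to 902 CPM in NK cells. Klra8 had 0 to 1.69 CPM in FL G1-ILCs, 1.1 to 2.86 CPM in AL 7R+ ILC1s and 959 to 1443 CPM in NK cells.

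Against AL NK minus BM NK cells, 4 genes were higher in FL G1-ILCs and lower in AL NK cells, with differences of 7.36 for Ccnb1, 5.03 for Cd3g, 7.27 for Cenpf, 6.70 for Mki67. The other 3 were lower in FL G1-ILCs and higher in AL NK cells, with differences of -1.43 for Il18rap, -13.15 for Il7r, -1.05 for Tbx21. Groups of 3 samples are not tested for a sample that stands alone, and of the 12 genes whose mean level in the 4 AL 7R- ILC1 samples is given, 0 had one. Tcrg-C4, given as a range, was not among these 12 and was not tested for such a sample. Its AL 7R- ILC1 samples had 133, 179, 137 and 135 CPM, so that sample 2 stood apart from the rest, which lay within 133 to 137 CPM.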

How the results depend on the processing

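Without each sample in turn, 5234 to 5330 genes were called between FL G1-ILCs and BM iILC1s, 2470 to 2818 higher and 2441 to 2770 lower, and the count stayed within 1.5 times the 5914 under RLE scaling (5944), no filter on low counts (5521), a minimum count of 30 (5587), all 8 groups (5596), 4 separate FL G1-ILC libraries (6409), only the 2 groups (5955), thinning (5750), an adjusted p under 0.01 (4396) and DESeq2 (6051). With an absolute log2 fold change over 1 as well, 2920 genes remained, 1340 higher and 1580 lower, 401 between AL 7R- and AL 7R+ ILC1s, 185 between AL NK and BM NK cells, and 2177 and 2819 for the differences of FL G1-ILCs minus BM iILC1s from these 2 comparisons. An adjusted p under 0.01 left 471 genes between AL 7R- and AL 7R+ ILC1s, 173 between AL NK and BM NK cells and 2583 for the difference from AL 7R- minus AL 7R+ ILC1s. The NK cell comparison rested on few samples: DESeq2 called 770 genes, and leaving out a sample gave 170 to 491, with 304 without BM NK sample 1, 200 without BM NK sample 2, 188 without AL NK sample 1 and 170 without AL NK sample 2, the lone AL NK sample then being assumed to vary like the other groups. The cause of these changes was not tested.

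Replicate numbers were not used as pairs in the main fit. Same-numbered samples of different groups had a mean correlation of deviations of -0.01 (37 pairs), and 3 of 18 samples correlated best with their own number. With 2 such pairs between FL G1-ILCs and BM iILC1s, this cannot tell whether same-numbered samples were handled together. With the replicate block 5374 genes were called, 712 between AL 7R- and AL 7R+ ILC1s and 353 between AL NK and BM NK cells, with 3677 and 4054 for the differences.

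Of 278 named genes, none reversed and 196 kept their call in every alternative. Leaving out samples cost calls in 50 of 1668 cases, among them cases for Ifng, Adk, mt-Co3, mt-Cytb, Pfkfb3 and Id2. Itga1, Trbc2, P2rx7 and Ccl5 gained a call in 6 cases. Small counts of list members moved more, as given beside interferon-stimulated genes and integrins. Median log2 fold changes over all genes were -0.04 under TMM and -0.07 under RLE scaling and DESeq2.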
